A study of Mus musculus with 12 samples.

Results

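The genes described here encode the enzymes that attach glutathione, glucuronic acid or sulfate to small molecules, together with the enzymes that make the sulfate donor and that cleave glutathione. They were chosen by name as the array files give it: the soluble glutathione S-transferases (Gst followed by a class letter and a number), the microsomal ones (Mgst), the UDP-glycosyltransferases (Ugt), the cytosolic sulfotransferases (Sult), the 3'-phosphoadenosine 5'-phosphosulfate synthases (Papss) and the gamma-glutamyltransferases (Ggt). Of 27597 gene names on the array, 51 met this rule. Of those 51 genes, 43 had a probe that the scanner software called well above background on 4 or more of 12 arrays and were tested among 17071 genes in all. The other 8 genes were Gstt4, Sult1e1, Sult2b1, Sult3a1, Sult5a1, Ugt1a9, Ugt2b1 and Ugt2b35, and none of their probes passed that filter.

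RNA was measured in sorted kidney tubules of 4 mice, 2 males (mice 2 and 4) and 2 females (mice 1 and 3). A COPAS instrument, a flow sorter for large particles, separated a suspension of renal tubules by green fluorescence. EGFP+ tubules are the fluorescent ones, which the design text identifies as distal convoluted tubule (DCT), the nephron segment that reabsorbs sodium chloride through the thiazide-sensitive cotransporter. ALL is the total fraction passed through the sorter, and EGFP- tubules are those without fluorescence. Every mouse gave 1 array of each fraction, so each fraction has n = 4 mice and no further treatment is named for any group. The sources used here give neither the age or strain of the mice nor the construct that drives EGFP. The fractions are groups of tubule pieces, so each can hold more than 1 cell type.

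Conjugation is the step of drug and hormone metabolism in which a bulky or charged group is joined to a molecule so that carriers can move it out of the cell. Glutathione transferases join glutathione to reactive compounds, and the product is trimmed by gamma-glutamyltransferase and peptidases into a mercapturate. UDP-glucuronosyltransferases of the endoplasmic reticulum use UDP-glucuronic acid, and sulfotransferases use the donor that the Papss enzymes make from sulfate and ATP. In the kidney these pathways are best known from the proximal tubule, the segment that takes up and secretes organic anions.

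Levels are log2 signals in which 0 is the 75th percentile of an array, which ran from 922 to 2270 intensity units over the 12 arrays. The share of probes well above background ran from 53.9% to 65.6%, and the number of arrays limits the precision. A level can be compared between fractions for a gene, but not between genes, since every probe has its own brightness. All 10 DCT markers tested were higher in EGFP+ than in EGFP- tubules, with Slc12a3, the cotransporter that defines the segment, at 331-fold. Markers of the late DCT and connecting tubule (6 of 6) and of the thick ascending limb (6 of 7) were higher too. Of 19 proximal tubule markers 18 were lower, and the summed linear signal of the 8 of them with a value on every array was 3.19 to 7.88 in EGFP+ tubules and 132 to 152 in EGFP- tubules, in units of the array's 75th percentile. The EGFP+ sum was 2.44%, 5.35%, 2.20% and 3.60% of the EGFP- sum in mice 1 to 4. Markers of podocytes (8 of 8), endothelium (9 of 10) and leukocytes (6 of 9) were lower in EGFP+ tubules. Other lists were mixed. Of 8 intercalated cell markers 1 was higher, 3 were lower and 4 did not pass, and their EGFP+ sum was 49.9% to 81.5% of the EGFP- sum. Of 9 principal cell markers 3 were higher and 6 lower, with a sum of 51% to 55.8%. In such samples, fewer cells of a type and less RNA per cell cannot be told apart, which holds for every difference given here.

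Several of these genes lie in clusters of close copies, and a probe can read more than 1 of them. The probes named Gsta1 and Gsta2 are shown because each lists both genes in the files: their sequences overlap over 28 bases, of which 27 match, with the single difference T40A counted from 1 at the 5′ end of the Gsta1 probe. The Ugt2b38 probe is shown because it lists Ugt2b37, Ugt2b38 and Ugt2b5. Capitals mark the bases that match in the overlap of the Gsta pair. The Gsta1 probe spans chr9:78021721-78025202 on the plus strand, the Gsta2 probe chr9:78119521-78119580 on the minus strand and the Ugt2b38 probe chr5:88496163-88496222 on the minus strand, all on mm8 as the files place them.
Gsta1: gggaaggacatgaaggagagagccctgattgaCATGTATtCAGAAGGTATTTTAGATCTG
Gsta2: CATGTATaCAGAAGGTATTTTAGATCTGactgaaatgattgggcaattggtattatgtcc
Ugt2b38: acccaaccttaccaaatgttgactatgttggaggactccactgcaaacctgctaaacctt

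EGFP+ tubules were set against EGFP- tubules to show which conjugation genes differ in level between these fractions. Of the 43 genes, 7 were higher and 26 lower in EGFP+ tubules at an adjusted p under 0.05 (limma, Benjamini-Hochberg over all genes tested), and 10 did not pass. Over all genes tested 32.3% were higher and 25.9% lower, 58.2% in either direction. The median difference of the 43 genes was -2.43 on the log2 scale, against 0.11 over all genes tested. With normexp it was -1.32, and 21 genes were lower. The filter bears on this count: 7 of the 43 genes were well above background on no EGFP+ array and could pass only through the other fractions, and 6 of them were among the lower ones. Of the 36 genes detected on at least 1 EGFP+ array, 7 were higher, 20 lower and 9 did not pass. The higher genes were the sulfotransferase Sult1a1, the donor synthase Papss1, the transferases Gsto2, Gstt3, Gstt1 and Gstm2, and the microsomal Mgst3. No Ugt and no Ggt gene was higher. All 33 differences kept their direction within each of the 3 slides, and that of Sult1a1 was 3.25, 3.69 and 3.63 in them. The 33 genes were called on these same arrays, so a kept direction is no separate evidence. The fractions on a slide came partly from different mice, so mouse and sex enter these differences. On slide 2 the EGFP+ array is of mouse 3, a female, and the EGFP- array of mouse 2, a male.

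**Figure D1:**
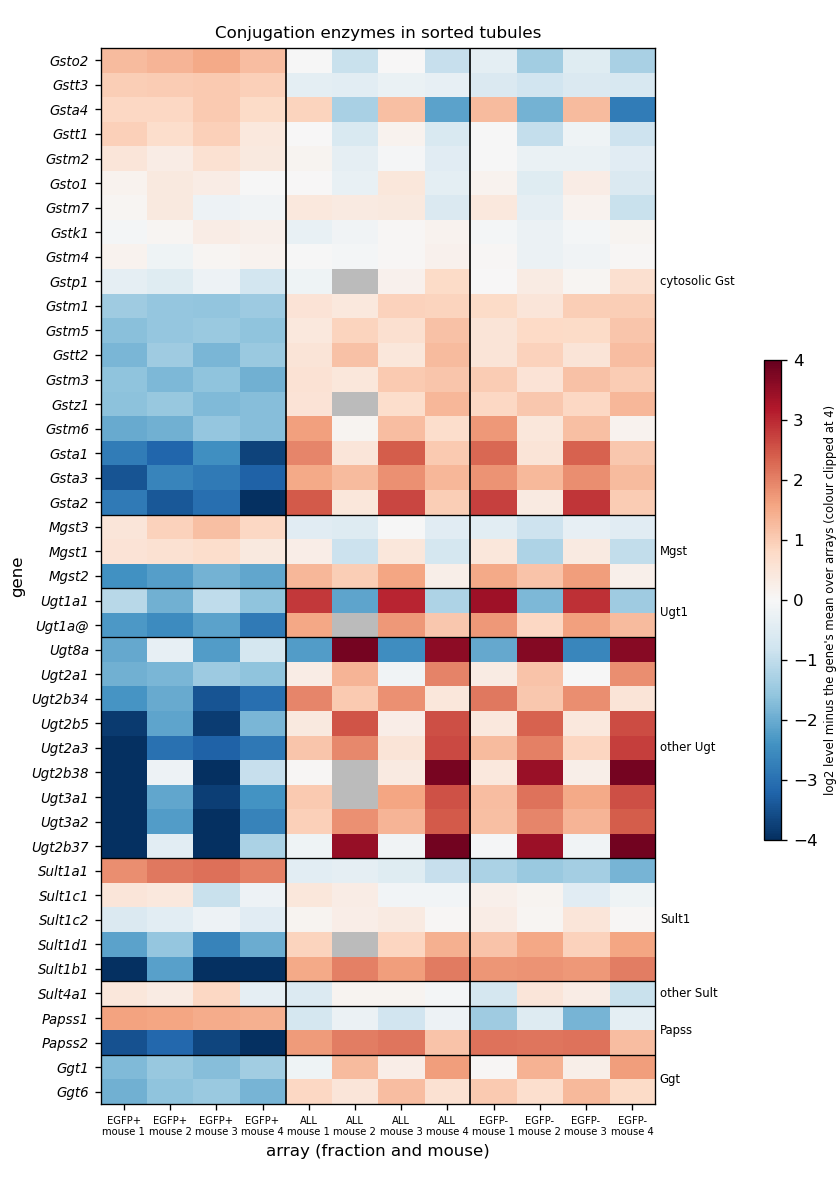
Levels of the 43 tested conjugation genes on the 12 arrays (columns, EGFP+ then ALL then EGFP-, mice 1 to 4 in each), as the log2 level minus the gene's own mean, with red above and blue below that mean and grey where no value was left. The EGFP+ columns stand apart in both directions, with Sult1a1, Papss1, Gsto2 and Gstt3 among the 7 higher genes and the Ugt2 and Ugt3 genes among the 26 lower ones, while ALL and EGFP- columns are alike within a mouse.

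Sulfation genes held the largest rise among the 43 genes. Sult1a1, which sulfates phenols and many drugs, had levels of 2.98, 3.22, 3.33 and 3.13 in EGFP+ tubules of mice 1 to 4, 0.69, 0.75, 0.63 and 0.20 in ALL, and -0.15, -0.36, -0.23 and -0.75 in EGFP- tubules. The EGFP+ arrays lay above all others, and the ALL arrays above all EGFP- arrays. The difference was 3.54 ± 0.16 (SE), an 11.62-fold rise (95% confidence interval 9.08 to 14.9, adjusted p = 8.2e-09). Its probe lies at chr7:126464239-126464298 on mm8.

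Papss1 and Papss2 make the same sulfate donor and went opposite ways. Papss1 had levels of 5.42, 5.41, 5.30 and 5.24 in EGFP+ tubules, 3.11, 3.58, 3.07 and 3.62 in ALL, and 2.41, 3.32, 1.95 and 3.44 in EGFP- tubules. No EGFP+ array overlapped with another fraction, and the rise was 2.57 ± 0.30, or 5.92-fold (95% confidence interval 3.78 to 9.27, adjusted p = 1.35e-05). Papss2 had -5.30, -4.96, -5.47 and -6.22 in EGFP+ tubules, where it was well above background on 0 of 4 arrays, against -0.10, 0.25, 0.32 and -0.68 in ALL and 0.35, 0.34, 0.35 and -0.57 in EGFP- tubules. All ALL and EGFP- arrays detected it, and it was at least 37.4-fold lower in EGFP+ tubules (adjusted p = 3.41e-08). A second Papss2 probe, placed on the opposite strand, was detected on 0 of 12 arrays. With the normexp background correction the Papss2 difference shrank from -5.61 to -2.74 and still passed. The Papss1 probe lies at chr3:131580757-131580816 and the Papss2 probe at chr19:32729219-32729278.

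The other sulfotransferases did not share the rise of Sult1a1. Sult1b1, which acts on thyroid hormones and phenols, had -6.51, -4.61, -6.45 and -6.73 in EGFP+ tubules, -0.92, -0.42, -0.76 and -0.36 in ALL, and -0.68, -0.62, -0.69 and -0.38 in EGFP- tubules. Only the EGFP+ array of mouse 2 was well above background, and with the other 3 at the detection floor Sult1b1 was at least 22.0-fold lower (adjusted p = 1.91e-07 for the measured difference of -5.48). With normexp the difference was -2.28. Sult1d1, an amine and phenol sulfotransferase studied in the mouse, had 1.88, 2.47, 1.34 and 2.04 in EGFP+ tubules and 5.15, 5.57, 4.93 and 5.59 in EGFP- tubules. Its ALL values were 4.92, 4.87 and 5.44, since the spot of mouse 2 was left out as an outlier, and EGFP+ was 10.4-fold lower than EGFP- (adjusted p = 7.44e-07). Sult1c2 fell slightly: it had 3.43, 3.59, 3.81 and 3.56 in EGFP+ tubules, 4.11, 4.26, 4.36 and 4.05 in ALL, and 4.30, 4.10, 4.49 and 4.05 in EGFP- tubules. The groups did not overlap, but the fold was only 1.55 (adjusted p = 0.00136). Sult1c1, with a difference of 0.03 ± 0.29 (95% confidence interval -0.60 to 0.67), and Sult4a1, a brain sulfotransferase with no settled substrate, at 0.51 ± 0.34 (-0.24 to 1.25), did not pass.

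Genes that supply and remove sulfate were compared from a list of 13: 1 was higher, 5 were lower and 7 did not pass. The higher one was Slc26a2, a sulfate transporter, at 1.59-fold (adjusted p = 0.0481). The lower ones included the apical and basolateral sulfate carriers of the proximal tubule, Slc13a1 (42.4-fold) and Slc26a1 (42.7-fold). Tpst1, which sulfates protein tyrosines, was 4.19-fold lower, and Slc26a6, an anion exchanger, 3.71-fold lower.

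**Figure D2:**
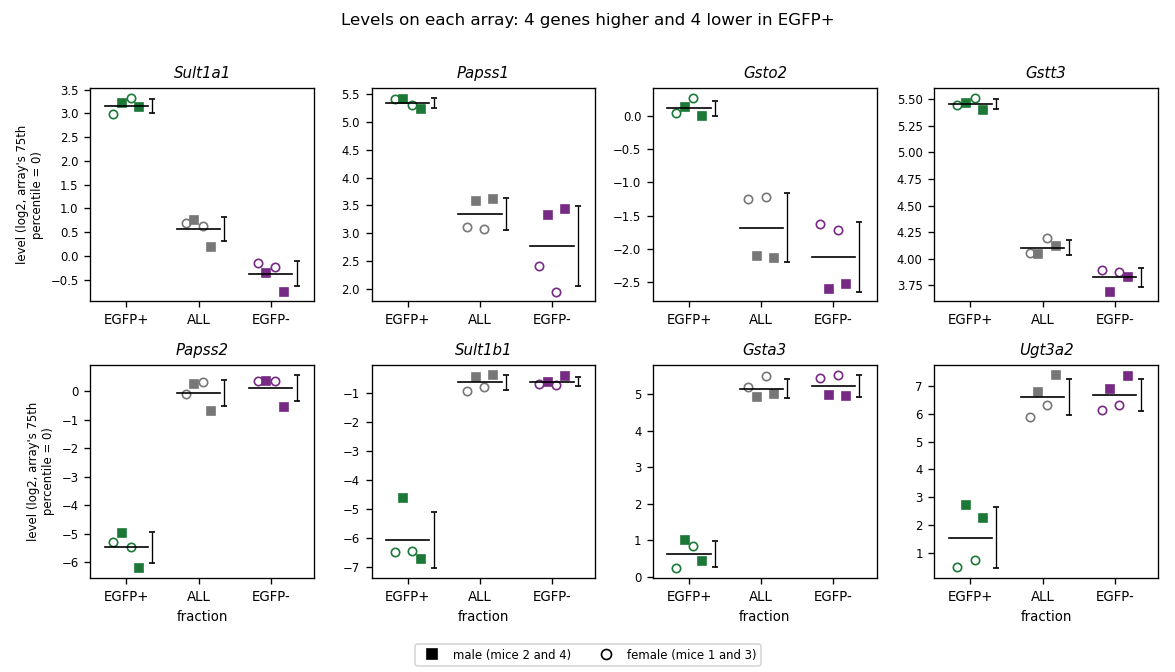
Level on each array (log2, 0 is the array's 75th percentile) of 4 genes higher and 4 lower in EGFP+ tubules, by fraction, with filled squares for males, open circles for females, horizontal bars for the mean and whiskers for the SD of 4 mice. Vertical scales differ between panels, and the 4 EGFP+ points lie apart from those of both other fractions in every panel, from 2.98 to 3.33 for Sult1a1 and from -6.22 to -4.96 for Papss2.

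Among the 19 soluble glutathione transferases tested, 4 were higher, 10 lower and 5 did not pass, with a median difference of -0.71. The 4 higher ones were of the omega, theta and mu classes. Gsto2, an omega enzyme that reduces dehydroascorbate, had 0.04, 0.13, 0.27 and 0.00 in EGFP+ tubules, -1.25, -2.11, -1.22 and -2.15 in ALL, and -1.63, -2.61, -1.72 and -2.53 in EGFP- tubules. The 4 EGFP+ arrays lay above all 8 others, and the rise was 4.71-fold (95% confidence interval 3.08 to 7.22, adjusted p = 2.84e-05). A second Gsto2 probe was well above background on the EGFP+ arrays alone, so no size is given for it.

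Theta transferases handle small halogenated and epoxide compounds. Gstt3 had 5.44, 5.47, 5.51 and 5.40 in EGFP+ tubules, 4.05, 4.04, 4.19 and 4.12 in ALL, and 3.89, 3.69, 3.88 and 3.83 in EGFP- tubules. It was the least variable of the rises, at 1.63 ± 0.09, or 3.1-fold (adjusted p = 2.61e-08). Gstt1 had 2.05, 1.81, 2.05 and 1.52 in EGFP+ tubules, 1.12, 0.49, 1.25 and 0.49 in ALL, and 1.09, 0.17, 0.94 and 0.28 in EGFP- tubules. EGFP+ was higher than the other fractions in each of the 4 mice, 2.36-fold over EGFP- (adjusted p = 0.00129). Gstt2, of the same class and the same cluster on chromosome 10, went the other way and was 5.41-fold lower (adjusted p = 2.23e-06). Its probe lies at chr10:75276177-75276236, that of Gstt3 at chr10:75217937-75217996 and that of Gstt1 at chr10:75230664-75237828.

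The mu class, clustered on chromosome 3, also moved in both directions. Gstm2 had 2.69, 2.51, 2.83 and 2.58 in EGFP+ tubules, 2.32, 1.84, 2.15 and 1.76 in ALL, and 2.18, 1.95, 1.94 and 1.75 in EGFP- tubules. The groups did not overlap and the rise was 1.62-fold (adjusted p = 0.00156). Gstm1, Gstm3 and Gstm5 were 4.98-fold, 6.34-fold and 5.18-fold lower (adjusted p between 9.76e-08 and 2.25e-07). Gstm6 had -7.22, -7.14, -6.77 and -6.93 in EGFP+ tubules, none well above background, -3.56, -5.10, -3.97 and -4.50 in ALL, and -3.48, -4.77, -3.99 and -5.08 in EGFP- tubules. It was detected on 3 of 4 arrays of each other fraction and was at least 1.90-fold lower (adjusted p = 6.84e-05), but with the normexp background correction its difference turned to 0.38 (adjusted p = 0.567, 2.63e-05 to 0.567 over 13 alternatives). Gstm4 (0.12 ± 0.11) and Gstm7 (0.22 ± 0.30) did not pass.

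Of the 4 alpha transferases tested, which act on lipid peroxides and their products, 3 fell. Gsta3 had 0.24, 1.02, 0.84 and 0.44 in EGFP+ tubules, 5.20, 4.93, 5.52 and 5.0 in ALL, and 5.46, 4.98, 5.54 and 4.95 in EGFP- tubules. The fall was 24.2-fold (95% confidence interval 17.6 to 33.4, adjusted p = 8.23e-09), and a second Gsta3 probe gave a difference of -4.95. The Gsta1 probe had 1.36, 0.99, 1.71 and 0.47 in EGFP+ tubules, 6.13, 4.65, 6.57 and 5.21 in ALL, and 6.45, 4.67, 6.52 and 5.25 in EGFP- tubules, a 24.1-fold fall (adjusted p = 9e-06). The Gsta2 probe had 0.29, -0.25, 0.13 and -1.17 in EGFP+ tubules, 5.58, 3.58, 5.81 and 4.13 in ALL, and 5.87, 3.51, 6.01 and 4.15 in EGFP- tubules, a 35.1-fold fall (adjusted p = 3.15e-05). Since these probes share most of their overlap, as printed above, they do not measure Gsta1 and Gsta2 apart. In ALL and EGFP- tubules the females stood above the males on both probes.

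Gsta4, the alpha enzyme that detoxifies 4-hydroxynonenal, did not follow its class. It had 2.39, 2.38, 2.59 and 2.3 in EGFP+ tubules, 2.44, 0.26, 2.76 and -0.60 in ALL, and 2.81, -0.34, 2.83 and -1.24 in EGFP- tubules. The EGFP+ levels were nearly equal in the 4 mice, while the other fractions split by sex, so that the difference of 1.40 ± 0.98 did not pass (95% confidence interval -0.75 to 3.55, adjusted p = 0.242). Gstp1, the pi transferase, whose probe lists Gstp1 and Gstp2, was 1.64-fold lower (adjusted p = 0.0162). That call was lost without mouse 2 (adjusted p = 0.0785) and with arrays centred on the median (0.11), in a range of 0.00174 to 0.11 over 14 alternatives. Gstz1, an isomerase of tyrosine breakdown, was 6.35-fold lower (adjusted p = 3.58e-07). Gsto1 (0.37 ± 0.24) and Gstk1, found in mitochondria and peroxisomes (0.19 ± 0.13), did not pass.

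Of the 3 microsomal transferases, Mgst3, which handles lipid hydroperoxides and leukotriene A4, was higher. It had 3.92, 4.35, 4.62 and 4.26 in EGFP+ tubules, 2.98, 2.92, 3.41 and 2.96 in ALL, and 3.01, 2.59, 3.11 and 2.98 in EGFP- tubules. The groups did not overlap, the rise was 2.57-fold (95% confidence interval 1.97 to 3.36, adjusted p = 3.48e-05), and its other probes gave 1.34 and 1.56 on the log2 scale. Mgst1, a detoxifying enzyme of the endoplasmic reticulum and outer mitochondrial membrane, was higher in 4 of 4 mice by 0.91 ± 0.41 on average. It missed the threshold (adjusted p = 0.0792) but passed with mouse as a block (0.0143) and with median centring (0.0256), in a range of 0.0143 to 0.278 over 14 alternatives. Mgst2 had -7.34, -7.12, -6.81 and -6.98 in EGFP+ tubules, none well above background, -3.58, -3.91, -3.33 and -4.68 in ALL, and -3.38, -3.77, -3.24 and -4.71 in EGFP- tubules. It was at least 2.79-fold lower (adjusted p = 5.65e-06), but normexp turned the difference to 0.06 (adjusted p = 0.921, 1.15e-06 to 0.921 over 13 alternatives).

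**Figure D3:**
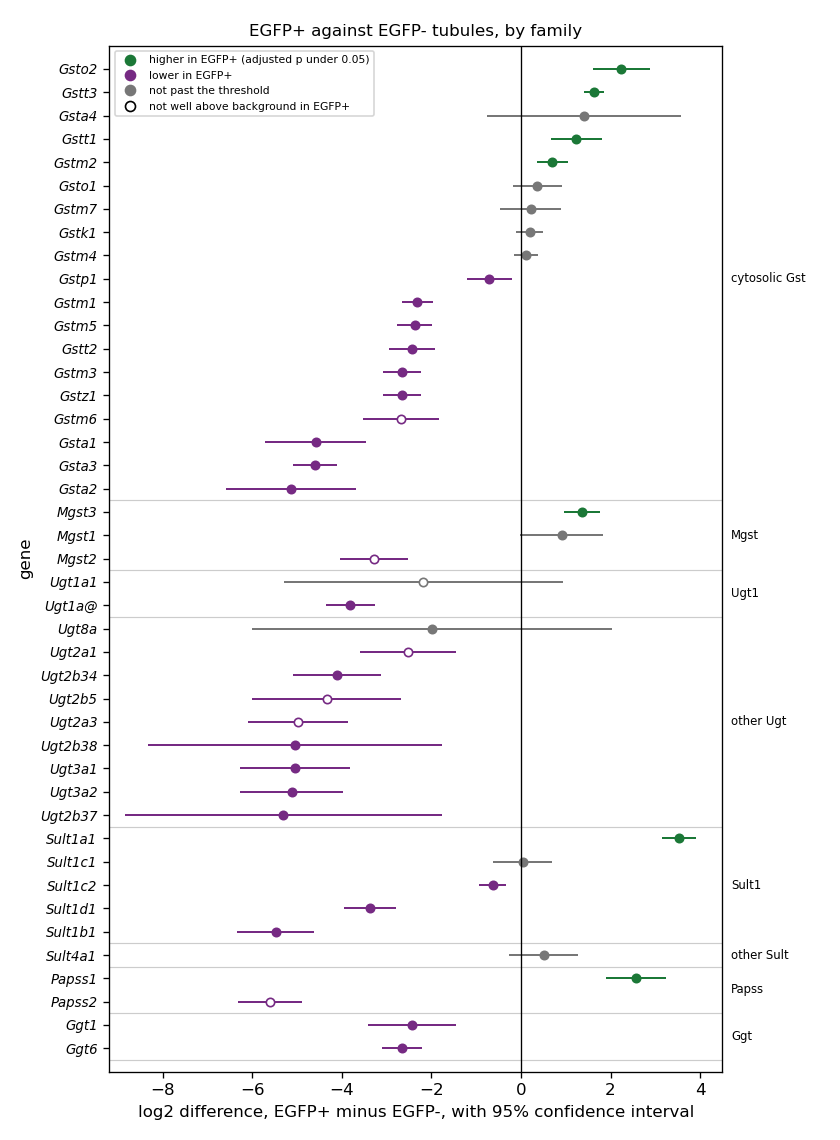
Difference between EGFP+ and EGFP- tubules for the 43 tested genes by family (log2, points with 95% confidence intervals), green where higher, purple where lower, grey where the threshold was not passed, and open where all EGFP+ arrays missed detection. The Ugt genes lie at or below -1.99, the glutathione transferases spread from -5.13 for Gsta2 to 2.24 for Gsto2, and Papss1 (2.57) and Papss2 (-5.61) lie on opposite sides of 0.

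Most UDP-glycosyltransferases were lower: of 9 genes outside the Ugt1 locus, 8 were lower and 1 did not pass, with a median difference of -4.98, or -4.11 with undetected genes at their bound. Ugt3a2, a glycosyltransferase that uses sugars other than glucuronic acid in humans, had 0.49, 2.72, 0.73 and 2.26 in EGFP+ tubules, 5.89, 6.78, 6.31 and 7.40 in ALL, and 6.13, 6.90, 6.30 and 7.36 in EGFP- tubules. It was 34.8-fold lower (95% confidence interval 15.9 to 76.1, adjusted p = 4.36e-06), with a second probe at -5.17. Ugt3a1, its neighbour on chromosome 15, had -0.22, 2.12, 0.45 and 1.81 in EGFP+ tubules, 5.25, 5.80 and 6.75 in ALL of mice 1, 3 and 4, and 5.45, 6.38, 5.72 and 6.79 in EGFP- tubules. The fall was 33.0-fold (adjusted p = 1.41e-05), and in EGFP+ tubules the males stood above the females for both Ugt3a genes.

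The Ugt2b enzymes glucuronidate steroids and bile acids. Ugt2b37 had -4.23, 1.58, -4.23 and 0.73 in EGFP+ tubules, 1.84, 5.50, 1.88 and 5.87 in ALL, and 1.96, 5.42, 1.86 and 5.87 in EGFP- tubules. EGFP+ was lower in all 4 mice, but the sexes lay so far apart that the 39.8-fold fall has an interval of 3.47 to 455 (adjusted p = 0.0136). The Ugt2b38 probe had -2.37, 3.01, -2.22 and 2.31 in EGFP+ tubules, 3.28, 3.59 and 7.03 in ALL of mice 1, 3 and 4, and 3.65, 6.70, 3.48 and 7.06 in EGFP- tubules. It fell 32.9-fold (adjusted p = 0.0127), and Ugt2b34, detected on 3 of 4 EGFP+ arrays, fell 17.3-fold (adjusted p = 7.74e-06, -2.18 with normexp in place of -4.11 on the log2 scale). Ugt2b5 had -7.28, -5.56, -7.24 and -5.29 in EGFP+ tubules, none well above background, -3.06, -0.93, -3.20 and -0.88 in ALL, and -3.04, -1.09, -3.04 and -0.85 in EGFP- tubules, at least 9.51-fold lower in EGFP+ (adjusted p = 0.000375).

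Ugt2a3, a bile acid glucuronosyltransferase, had -7.68, -6.67, -6.93 and -6.55 in EGFP+ tubules, -2.58, -1.79, -3.18 and -1.06 in ALL, and -2.44, -1.68, -2.85 and -0.94 in EGFP- tubules. No EGFP+ array detected it and all others did, so it was at least 9.68-fold lower (adjusted p = 4.07e-06). With normexp, Ugt2a3 (adjusted p = 0.0621, 2.08e-07 to 0.0621 over 14 alternatives) and Ugt2b5 (0.11, 1.04e-08 to 0.11) no longer passed. Ugt2a1, known from the olfactory epithelium, was at least 1.73-fold lower than in EGFP- tubules (adjusted p = 0.000721) on a probe that no EGFP+ array detected. Another Ugt2a1 probe was likewise undetected in EGFP+ tubules, the remaining one was detected on 1 EGFP+ array alone, and normexp turned the difference to 0.42 (adjusted p = 0.577, 0.000148 to 0.577 over 14 alternatives). Ugt8a, the galactosyltransferase that makes the myelin lipid galactosylceramide, did not pass at -1.99 ± 1.82 (adjusted p = 0.373), and its levels by sex are given below.

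At the Ugt1 locus, whose genes share their last exons, the probe labelled Ugt1a@ lists Ugt1a10, Ugt1a6a, Ugt1a6b and Ugt1a7c. It had 3.54, 3.32, 3.69 and 3.0 in EGFP+ tubules, 7.37, 7.57 and 6.91 in ALL of mice 1, 3 and 4, and 7.57, 6.66, 7.47 and 7.08 in EGFP- tubules. The fall was 14.1-fold (95% confidence interval 9.78 to 20.2, adjusted p = 1.73e-07). A dimmer probe of the same name, which lists Ugt1a6b alone, gave -1.25, and the mean of the probes did not pass (adjusted p = 0.0707, 6.31e-08 to 0.0707 over 14 alternatives). Ugt1a1, which conjugates bilirubin, was well above background on no EGFP+ array and only on the 2 female arrays of each other fraction. Its difference of -2.19 ± 1.41 did not pass (adjusted p = 0.206) except with mouse as a block (0.0373, in a range of 0.0373 to 0.923 over 13 alternatives).

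The Ugt signal left in EGFP+ tubules was set beside that of markers of other cells. The summed signal of the 7 Ugt2, Ugt3 and Ugt8 genes with a value on every array was 1.59, 9.92, 1.83 and 6.72 in EGFP+ tubules and 75.6, 167, 83.6 and 227 in EGFP- tubules of mice 1 to 4. That is 2.11%, 5.93%, 2.18% and 2.96% of the EGFP- sum, beside 2.44%, 5.35%, 2.20% and 3.60% for the proximal markers. The endothelial share was 9.6%, 14.2%, 10.1% and 11.5%, the podocyte share 2.76%, 3.3%, 2.4% and 3.04% and the erythroid share 13.6%, 39.9%, 17.3% and 30.1%. The erythroid list holds Slc4a1, also an intercalated cell marker, which did not pass at 1.16-fold higher. Its other genes were lower, the haemoglobin genes Hba-a1 and Hbb-bt 43.4-fold and 54.3-fold and Alas2 at least 9.34-fold. The erythroid share is thus no measure of red cell material alone. Mouse 2 had the highest share for the Ugt genes and for the proximal, endothelial, podocyte and erythroid lists, as well as for the principal cell list (55.8%). Mouse 4 had the highest share for the leukocyte list (7.97%, 11%, 10.3% and 14.4% in mice 1 to 4). The same held for smooth muscle and stroma (20.1%, 19.2%, 19% and 20.7%) and intercalated cells (49.9%, 70.6%, 64.3% and 81.5%). The sum over 37 of the 43 genes was 43.2%, 51.6%, 44.3% and 37.2%, and that of the 3 Mgst genes 134%, 346%, 184% and 247%. The part of other cells' material in the EGFP+ levels of the lower genes was not tested.

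Gamma-glutamyltransferases cleave extracellular glutathione and its conjugates. Ggt1, an enzyme of the proximal brush border, had 2.38, 2.62, 2.45 and 2.75 in EGFP+ tubules, 3.97, 5.42, 4.41 and 5.83 in ALL, and 4.20, 5.54, 4.38 and 5.81 in EGFP- tubules. All EGFP+ arrays lay below all others, 5.41-fold below EGFP- (95% confidence interval 2.76 to 10.6, adjusted p = 0.000533). Ggt6, a related gene, had -0.04, 0.30, 0.39 and 0.02 in EGFP+ tubules, 2.71, 2.38, 3.12 and 2.5 in ALL, and 2.93, 2.55, 3.18 and 2.66 in EGFP- tubules, a 6.33-fold fall (adjusted p = 2.37e-07). A further member of the family, Ggt5, which cleaves leukotriene C4, carries an older name in the files and so falls outside the naming rule. Ggt5 was at least 37.3-fold lower in EGFP+ tubules. Ggt7, which also matches the rule only by its current name, did not pass at -0.35 ± 0.21.

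The steps around conjugation were read from lists of other genes, whose counts stand against the 32.3% higher and 25.9% lower over all genes. Glutathione synthesis had 1 higher and 6 lower genes of 8: Gclc, the catalytic subunit of the rate-limiting ligase, was 2.14-fold higher (adjusted p = 3.15e-05), while its modifier subunit Gclm was 3.95-fold lower (4.25e-05). Gss, which completes glutathione, was 7.21-fold lower (adjusted p = 0.000103), and Gsr, which regenerates it, 3.27-fold lower (8.51e-07). The catalytic and the modifier subunit of one enzyme thus moved in opposite directions. Of 8 genes of the mercapturate pathway 7 were lower, among them the dipeptidase Dpep1 (45.1-fold) and the N-acetyltransferase Nat8 (33.2-fold), and 0 were higher. Of 8 glutathione peroxidase genes 2 were higher, Gpx6 at 28.5-fold (adjusted p = 2.15e-09) and Gpx8 at 3.11-fold, and 3 were lower, among them the secreted Gpx3 at 25.05-fold (1.33e-08).

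The list for the supply and release of glucuronic acid had 0 higher and 4 lower genes of 6. Ugdh, which makes UDP-glucuronic acid, was 3.19-fold lower. Slc35d1 and Slc35d2, carriers of nucleotide-linked sugars, were 3.86-fold and 4.05-fold lower. Of 14 carriers of conjugates and organic anions, 11 were lower and 2 higher. Abcc1, an exporter of glutathione conjugates, was 4.92-fold higher (adjusted p = 6.9e-07) and Abcc5, an exporter of organic anions, 1.48-fold higher (0.0143). The apical exporter Abcc2, in contrast, was 45.0-fold lower and the uptake carrier Slc22a7 35.9-fold lower. Of these 14 carriers, 2 also stand in the proximal marker list.

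Regulators of these enzymes were listed too. Of 11 transcription factors known to act on xenobiotic enzymes, 8 were lower, with Hnf4a, a master factor of the proximal tubule and liver, at 40.9-fold (adjusted p = 3.95e-08), and the xenobiotic receptor Nr1i2 at least 22.4-fold lower. Ahr, the dioxin receptor, was the 1 higher gene, at 1.97-fold (adjusted p = 0.000149). Of 12 regulators and targets of the oxidative stress factor NRF2, 4 were higher, namely Srxn1 (2.47-fold), Gclc (2.14-fold), Nfe2l2 (1.76-fold), the gene of NRF2 itself, and Nqo1 (1.56-fold). Another 6 were lower, with Me1 lowest at 35.9-fold. The share of higher genes in this list is close to that over all genes.

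Promoter sequences were searched for the letters of motifs, because members of the Ugt2 and Ugt3 families fell together with Hnf4a. The windows are the 250 bases before each start in RefSeq (GRCm38.p6), read on both strands, and 38 of the 43 genes have one. A match is a description of the letters only, and the absence of one says nothing of the factor. The letters of the HNF1 motif occur in 0.131% of windows and in those of 2 of the 38 genes. These are Ugt2a3 and Ugt3a1, both lower in EGFP+ tubules. The HNF4 letters CAAAGTCCA occur in 0.384% of 32851 windows and in 0 of those of the 38 genes. The antioxidant response element TGACNNNGC, to which NRF2 binds, occurs in 10.2% of windows and in those of 5 of the genes, Ggt1, Gsta3, Gstm5, Gstm7 and Mgst1, of which 3 were lower and 0 higher. The dioxin response element GCGTG, whose first letters GC can overlap with the last letters of the antioxidant element, occurs in 28.2% of windows and in those of 9 of the genes, of which 2 (Mgst3 and Papss1) were higher and 6 lower. The windows of the 7 lower Ugt2 and Ugt3 genes that have one are also poor in CG, with 0 to 2 CG pairs, against a median of 6 (quartiles 2 and 16) over all windows. The same holds for other members, among them the higher Sult1a1 with 0 and Gstt3 with 2.

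EGFP+ tubules were next set against the total fraction. These differences share the EGFP+ arrays with those given above and are no separate evidence. Again 7 genes were higher and 26 lower, the same in each direction, against 30.3% higher and 24.9% lower over all genes tested (55.3% in either direction). Sult1a1 was 6.05-fold higher (adjusted p = 1.23e-07), Papss1 4.00-fold (0.000121), Gsto2 3.47-fold (0.000194) and Gstt3 2.55-fold (1.66e-07). Papss2 was at least 33.2-fold lower and Sult1b1 at least 21.7-fold lower with undetected arrays at the floor (adjusted p = 2.78e-07). With normexp the Sult1b1 difference from ALL was -2.35. The median difference of the 43 genes was -2.37, against 0.09 over all genes tested. The fall of Ugt2b38 (-4.45, 3 ALL arrays, adjusted p = 0.0347) was lost without mouse 1, 3 or 4 (0.0927, 0.108 and 0.0905) and ranged from 6.29e-06 to 0.108 over 14 alternatives. The low end is the fit with mouse as a block, in which the difference was -5.17, and the gene was lower in 3 of 3 mice with both values. That of Gstp1 (-0.70, adjusted p = 0.0263) was lost without mouse 2, 3 or 4 (0.0769, 0.0618 and 0.126) and ranged from 0.00701 to 0.186.

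The total fraction was then set against EGFP- tubules. Over all genes 1.39% were higher in ALL and 0.00586% lower, and of the 43 genes 1 was higher and 0 lower. The higher one was Sult1a1, by 0.94 ± 0.16 or 1.92-fold (adjusted p = 0.012), higher in 4 of 4 mice. That call was lost without mouse 1, 2 or 3 (adjusted p = 0.0947, 0.244 and 0.153) and with only these fractions in the fit (0.0744), in a range of 0.00421 to 0.244 over 14 alternatives. At an unadjusted p under 0.05, limma gave 2 genes higher and 0 lower, against 4.14% of all genes in either direction. The ALL mean lay between those of EGFP+ and EGFP- in 35 of the 43 genes, and in 29 of the 33 that differed between EGFP+ and EGFP-. The share over all genes was not computed. ALL is the total fraction and holds tubules of both kinds, so this position is not particular to the conjugation genes.

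Levels in the 4 mice were also compared by sex. With the fractions of a mouse averaged, 4 of the 43 genes were higher and 3 lower in males than in females, against 0.967% higher and 0.305% lower over all genes tested (1.27% in either direction). The higher genes were all Ugt genes: Ugt8a by 4.55 ± 0.17 (adjusted p = 0.00483), Ugt2b37 by 4.32 ± 0.11 (0.00206), Ugt2b38 by 3.90 ± 0.16 (0.0165) and Ugt2b5 by 2.04 ± 0.13 (0.016). For Ugt2b38 this sets 1 male against 2 females, since mouse 2 lacks its ALL value, and the lone male is assumed to vary like the other mice. The other higher genes, 3 of the 4, have all mice. The Ugt2b37 probe lists Ugt2b36 and Ugt2b37, and the Ugt2b38 probe lists Ugt2b37 as well. Their differences by sex, here and within a fraction, may therefore not be of separate genes. The lower ones were Ugt1a1 by -3.35 ± 0.21 (0.0155), Gsta4 by -2.18 ± 0.24 (0.042) and Gsta2 by -1.62 ± 0.12 (0.0195). With 2 mice a side these calls are fragile: with any 1 mouse left out, limma called 0 genes lower, and 2, 2, 2 and 1 genes higher without mice 1, 2, 3 and 4. Ugt2b37 was called each time, with an adjusted p of at most 0.0408 over 13 alternatives. For the other 6 genes the highest adjusted p over the alternatives was 0.0653 for Ugt8a, 0.0737 for Ugt2b38, 0.0969 for Ugt2b5, 0.0581 for Ugt1a1, 0.145 for Gsta4 and 0.116 for Gsta2.

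Ugt8a was the most divided of them. It had -2.14 and -2.51 in males against -3.86 and -4.03 in females in EGFP+ tubules, 2.01 and 1.76 against -4.03 and -4.29 in ALL, and 1.86 and 1.85 against -3.85 and -4.43 in EGFP- tubules. The males lay above the females in every fraction. Its other tested probe gave an EGFP+ minus EGFP- difference of -1.55. The remaining Ugt8a probe was well above background on 1 EGFP+ array alone, so no size is given for it. Ugt1a1 ran the other way, with -7.46 and -7.07 in males against -2.28 and -2.73 in females in EGFP- tubules, and -7.75 and -6.90 against -2.82 and -2.62 in ALL. No male array was well above background, so it was at least 6.27-fold lower in males in EGFP- tubules (adjusted p = 6.82e-05) and at least 5.72-fold lower in ALL, and in EGFP+ tubules no array of either sex was (-7.58 and -7.25 in males, -6.77 and -6.69 in females). With normexp the Ugt1a1 sex difference shrank to -0.60.

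**Figure D4:**
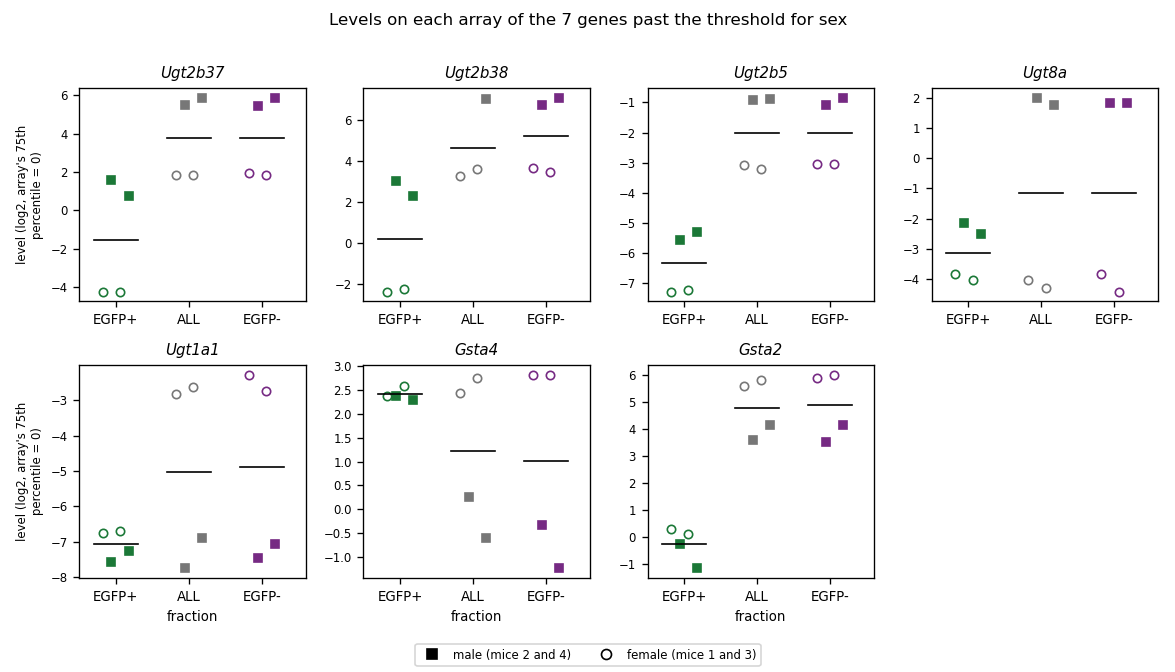
Level on each array (log2, 0 is the array's 75th percentile) of the 7 genes past the threshold for sex on mouse means, by fraction, with filled squares for males, open circles for females and horizontal bars for the mean of the fraction. Males lie above females for Ugt2b37, Ugt2b38, Ugt2b5 and Ugt8a in all fractions, females above males for Ugt1a1, Gsta2 and Gsta4 in ALL and EGFP-, and for Gsta4 the EGFP+ points lie together between 2.3 and 2.59.

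Within a fraction, each sex has 2 arrays. In EGFP+ tubules 6 genes were higher in males and 0 lower, against 0.879% and 0.129% over all genes (1.01% in either direction), and at an unadjusted p under 0.05 limma gave 8 higher and 5 lower, against 6.78% of all genes in either direction. The 6 genes were Ugt2b37 (5.39), Ugt2b38 (4.96), Ugt3a2 (1.88), Ugt3a1 (1.85), Ugt2b5 (1.83) and Ugt8a (1.62), on the log2 scale, and Ugt2b5 was not well above background in either sex there. The proximal marker sum in EGFP+ tubules was higher in the males too, 7.88 and 5.47 against 3.20 and 3.19 in the females. So was the principal cell sum, 24.4 and 23.9 against 22 and 22.9. Other sums were lower in the males, for podocytes 2.36 and 1.9 against 3.12 and 2.47, and for the thick ascending limb 71.4 and 65.4 against 79 and 76.5. The leukocyte and the smooth muscle and stroma sums were lower as well, and the remaining lists overlapped between the sexes. The part of other cells' material in these differences was not tested. In EGFP- tubules 8 genes were higher and 9 lower in males (5% and 2.46% over all genes, 7.46% in either direction). Beside the Ugt genes, males had more Ggt1 (1.39, adjusted p = 0.00609) and Papss1 (1.2, 0.00465) there. They had less Mgst1 (-1.51, 0.00125), Gsta1 (-1.52, 0.0192) and Gsto2 (-0.90, 0.00498). On mouse means limma passed none of these genes. The adjusted p was 0.0853 for Ggt1, 0.15 for Papss1, 0.0575 for Mgst1, 0.0589 for Gsta1 and 0.105 for Gsto2. In ALL the counts were 8 higher and 7 lower (6.62% and 2.87% over all genes, 9.49% in either direction).

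A further test asked if the gap between EGFP+ and EGFP- levels varied with sex, from 1 difference per mouse. No gene of 17071 passed (0% called), and limma gave 16 of the 43 genes, and 12.1% of all genes, at an unadjusted p under 0.05. The smallest adjusted p among the 43 was 0.0595, for Ugt8a (-4.37) and for Ugt1a1, whose size is not given because no EGFP+ array and no male array detected it. For Gsta4 the difference was 3.47 (adjusted p = 0.0962): EGFP+ minus EGFP- was 2.72 and 3.55 in the males, mice 2 and 4, against -0.43 and -0.24 in the females, mice 1 and 3.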

How the data were processed

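RNA of 3 tubule fractions from each of 4 mice was amplified, labelled with Cy3 and hybridised to one-colour Agilent arrays, per the labels' protocols. The deposited scanner files hold the processed signal intensity of each spot, background-subtracted by Feature Extraction 9.5.3.1 on array design 014868 with probes placed on mm8, per the file headers. From these, outlier spots (66 to 516 per array) were left out, spots of a probe averaged, and log2 intensities scaled to the 75th percentile of the array. A gene's probe was the one with the highest mean among probes well above background on at least 4 arrays, which left 17071 genes, 445 of them without a value on some array. Fractions were compared over all 12 arrays with limma 3.58.1 (statmod 1.5.0, R 4.3.3), Benjamini-Hochberg adjustment over all genes and a threshold of 0.05; the procedure was tested on simulated data. Folds against a fraction without detection are bounds: the mean of the brighter fraction was set against a floor on each array of the dimmer one, its lowest detected signal or the probe's own signal if that was larger. This floor was also applied, after the data were seen, to the undetected arrays of Sult1b1 and to the Ugt2a1 probe.

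Sexes were compared on mouse means, 2 against 2, and within a fraction by a fit with 6 groups. The labels give the arrays of a number to the same animal, and arrays of a mouse deviated together (correlations of 0.24 to 0.83 over 12 pairs, -0.68 to 0.59 over 36 pairs of different mice), so mouse was tried as a block. Other alternatives were normexp background correction (offset 50), median centring, quantile normalization, filters, outlier spots kept, the mean of a gene's probes, slide as a block, and each mouse left out. The 3 slides, which coincide with scan sessions, each held all 3 fractions.

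Members and gene lists were chosen with earlier results of these data known. Every member is accounted for; array values are given for up to 4 members per family and direction, for members with a bound and for those past the threshold for sex, and other lists name up to 4 genes per direction. Members keep the files' gene names, 8 further names match the rule only by current symbol (3 tested), and other probes were named through RefSeq. A whole-series value table was not used here.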

Additional observations from a re-analysis of the deposited data

Results flagged for a closer look

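Of 123 groups of 4 arrays examined, 1 for each gene and fraction with 4 values, 4 held an array far from the other 3 (Dixon's test at the 95% level), and chance gives about 1 in 20. The ALL array of mouse 4 had -4.43 for Gstm7, a mu transferase. The ALL array of mouse 3 had 3.41 for Mgst3, above the 2.92 to 2.98 of the others. The EGFP- array of mouse 4 had -0.57 for Papss2, against 0.34 to 0.35 in the other mice. The EGFP+ array of mouse 2 had -4.61 for Sult1b1, against -6.73 to -6.45 in the other mice.

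For 2 genes the EGFP+ against EGFP- difference ran opposite ways in the sexes. Gsta4 was higher in EGFP+ tubules in both males and lower in both females, a difference of 3.47 between the sexes (limma, adjusted p = 0.0962). Gstm7 did the same, with 0.78 and 0.75 in males and -0.33 and -0.33 in females, a difference of 1.09 (adjusted p = 0.27). Neither passed the threshold.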

How the results depend on the processing

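In EGFP+ against EGFP- tubules, 7 genes were higher and 25 to 26 lower with any 1 mouse left out, against 21 lower with normexp and 24 with the stricter filter. Over the single genes 581 alternative values kept the direction and side of the threshold, 8 reversed (3 of which, Gstm6, Mgst2 and Ugt2a1 with normexp, also no longer passed), 3 passed where the reported value did not and another 5 no longer passed. In EGFP+ against ALL the counts were 442 kept and 18 no longer passing, and for sex 63 and 26. With mouse as a replicate block, Mgst1 (adjusted p = 0.0143) and Ugt1a1 (0.0373) passed against EGFP-, and Mgst1 (0.0321) and Ugt1a1 (0.0493) against ALL; it changed no other call. Median centring also let Mgst1 pass against EGFP- (0.0256). The median difference from EGFP- of -2.43 was -1.32 with normexp, -1.99 without a filter on dim probes, -2.21 within slide 1, -2.15 within slide 2 and -2.60 to -2.27 with a mouse left out. The median difference from ALL of -2.37 was -1.53 with normexp, -2.17 with median centring, -1.996 without a filter and -2.10 within slide 1. With normexp the differences from EGFP- turned to 0.38 for Gstm6, 0.061 for Mgst2, 0.081 for Ugt1a1 and 0.42 for Ugt2a1, all undetected on the EGFP+ arrays. Gstm7 turned to -0.036 with the mean of its probes, and Sult1c1 to -0.13 with slide as a block and to between -0.062 and 0.19 with a mouse left out. The cause was not tested.

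In ALL against EGFP- tubules, 0 genes were higher with only these fractions in the fit and 0 to 1 with a mouse left out. By sex, where 4 genes were higher and 3 lower in males, the counts were 11 and 9 with normexp, 9 and 5 with median centring, 4 and 5 with quantile normalization, 2 and 0 without a filter, 13 and 11 with slide in the fit and mouse as a random block, 10 and 5 with mouse as a random block alone, and 1 to 2 and 0 with a mouse left out. Quantile normalization gave 1 gene past the threshold for a sex difference in the EGFP+ against EGFP- contrast, lower in males. Over all genes, the 165 higher and 52 lower by sex became 2474 and 338 with normexp, 548 and 199 with median centring, 29 and 4 without a filter, 499 and 352 with the random block, 2555 and 1820 with slide added, and 10 to 42 and 2 to 9 with a mouse left out. The 5178 genes higher and 4256 lower against ALL became 3395 and 2599 with normexp. The 5518 higher and 4414 lower against EGFP- became 4841 and 2981 with normexp and 6319 and 3763 with median centring. The 237 genes higher in ALL became 131 with only these fractions in the fit. The median of all genes between EGFP+ and EGFP- tubules was 0.11, 0.26 with median centring and 0.18 with quantile normalization. Signals near background limit the sizes given for undetected genes, and 2 mice a side limit every comparison by sex.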
